A study of Homo sapiens with 2 samples.

Results

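The genes of the G2 and M phases of the cell cycle were followed in MDAMB468 and CAL51, both labelled as human triple negative breast cancer cell lines. The set held 52 genes, taken from a fixed list of symbols and matched by Ensembl identifier to the 30796 genes of the deposited table, and all 52 were found. Each line was profiled in 1 Drop-seq library, in which single cells are lysed in droplets with a barcoded bead and the 3′ ends of polyadenylated RNA are read. No treatment, passage or cell cycle arrest is given in the labels for either line. Because each line has 1 library, there is no replicate check of any difference between lines, no test across samples was possible, and all intervals below cover counting error only.

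In G2 and M, a cell condenses its duplicated chromosomes, attaches them to the spindle, separates them and divides. Entry into mitosis is driven by the kinase CDK1 with a B-type cyclin, and exit by the anaphase-promoting complex (APC/C), a ubiquitin ligase switched on by CDC20. Transcription of many of these genes rises late in the cycle, after release from the repressive DREAM complex, under the factors B-MYB and FOXM1. In their promoters, DREAM and its activating counterpart contact a short element called the CHR, and the factor NF-Y binds CCAAT boxes.

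Promoters are shown because the letters of these elements are shared by many of the 52 genes although the list was not chosen on sequence. RefSeq promoters on GRCh38.p14, running from 250 bases before to 50 bases after each annotated start, were matched by symbol for 44 of the 52 genes. The searched letters were CCAAT on both strands, and TTTGAA on both strands or TTTAAA, which is its own complement, for the CHR. The last 150 bases before the start are printed below 5′ to 3′ in the direction of transcription, with those letters in capitals wherever they occur. CKS1B and CKS2, the small subunits that bind cyclin-dependent kinases, are given because their variation between cells differed between the lines. CDC20, the kinetochore protein CENPF, the spindle motor KIF11 and the proliferation antigen MKI67 represent other roles. NEK2, a centrosomal kinase, is given as a promoter with CCAAT and without the CHR letters.
CKS1B, chr1:154974531-154974680, plus strand: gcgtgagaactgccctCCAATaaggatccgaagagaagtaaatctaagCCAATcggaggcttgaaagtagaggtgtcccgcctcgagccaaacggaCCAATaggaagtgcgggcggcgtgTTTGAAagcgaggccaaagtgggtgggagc
CKS2, chr9:89311045-89311194, plus strand: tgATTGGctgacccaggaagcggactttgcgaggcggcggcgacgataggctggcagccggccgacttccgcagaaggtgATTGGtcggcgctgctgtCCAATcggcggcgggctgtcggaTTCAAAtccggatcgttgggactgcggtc
CDC20, chr1:43358831-43358980, plus strand: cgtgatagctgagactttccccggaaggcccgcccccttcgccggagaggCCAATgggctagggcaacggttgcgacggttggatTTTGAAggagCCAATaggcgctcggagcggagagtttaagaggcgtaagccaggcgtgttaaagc
CENPF, chr1:214603045-214603194, plus strand: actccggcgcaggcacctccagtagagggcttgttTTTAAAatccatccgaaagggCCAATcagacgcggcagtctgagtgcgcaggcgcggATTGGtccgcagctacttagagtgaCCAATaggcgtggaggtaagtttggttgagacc
KIF11, chr10:92592980-92593129, plus strand: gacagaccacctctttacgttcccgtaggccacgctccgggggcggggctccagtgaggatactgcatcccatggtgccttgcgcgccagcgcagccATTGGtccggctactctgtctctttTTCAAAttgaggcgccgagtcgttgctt
MKI67, chr10:128126424-128126573, minus strand: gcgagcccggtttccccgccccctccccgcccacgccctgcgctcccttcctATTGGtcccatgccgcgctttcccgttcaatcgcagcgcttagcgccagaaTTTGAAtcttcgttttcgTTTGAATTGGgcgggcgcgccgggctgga
NEK2, chr1:211675622-211675771, minus strand: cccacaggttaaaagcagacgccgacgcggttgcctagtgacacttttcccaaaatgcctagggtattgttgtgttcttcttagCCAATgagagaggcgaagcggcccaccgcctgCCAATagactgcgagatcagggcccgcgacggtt

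In CKS1B and CKS2 the CHR letters began 30 and 29 bases before the start, and in KIF11 28 bases before it. The CCAAT copy closest to the CHR letters began 54 bases before the start in CKS1B, 52 in CKS2 and 53 in KIF11, so these 3 promoters held a CCAAT followed by the CHR letters at nearly the same distance. In CDC20 the CHR letters, at 65 bases before the start, lay between CCAAT copies at 100 and 55. In MKI67 the second CHR match and a CCAAT on the other strand shared letters, in the run TTTGAATTGG. All 7 stretches lie upstream of the RefSeq start, while in GENCODE 29 the gene starts 28 bases earlier for CKS1B, 26 for CDC20 and 9 for NEK2, so those last bases fall in a first exon there.

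The CHR letters were present for 38 of the 44 genes (86.4%), against 27.9% of the 27305 genes with a promoter in the same table. TTTGAA alone was present for 32 (72.7%, against 18.2% of all genes). From 50 bases before to 50 after the start, the CHR letters were present for 26 genes (59.1%, against 9.41%). CCAAT was present for 31 genes (70.5%, against 39.7%) and occurred 2 or more times for 24 (54.5%, against 12.9%). Both elements occurred together in a promoter of 27 genes (61.4%, against 11.2%). A gene was counted if any of its annotated promoters held the letters.

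Among 42 S phase genes, 31 had a promoter in the table. CCAAT was about as frequent among them, in 23 of 31 (74.2%), while the CHR letters were in 8 (25.8%), a share near that of all genes. The 6 members without the CHR letters in this window were TACC3, CKAP2, AURKB, BUB1, PSRC1 and NEK2. A match describes letters only and shows neither binding nor its absence.

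**Figure D1:**
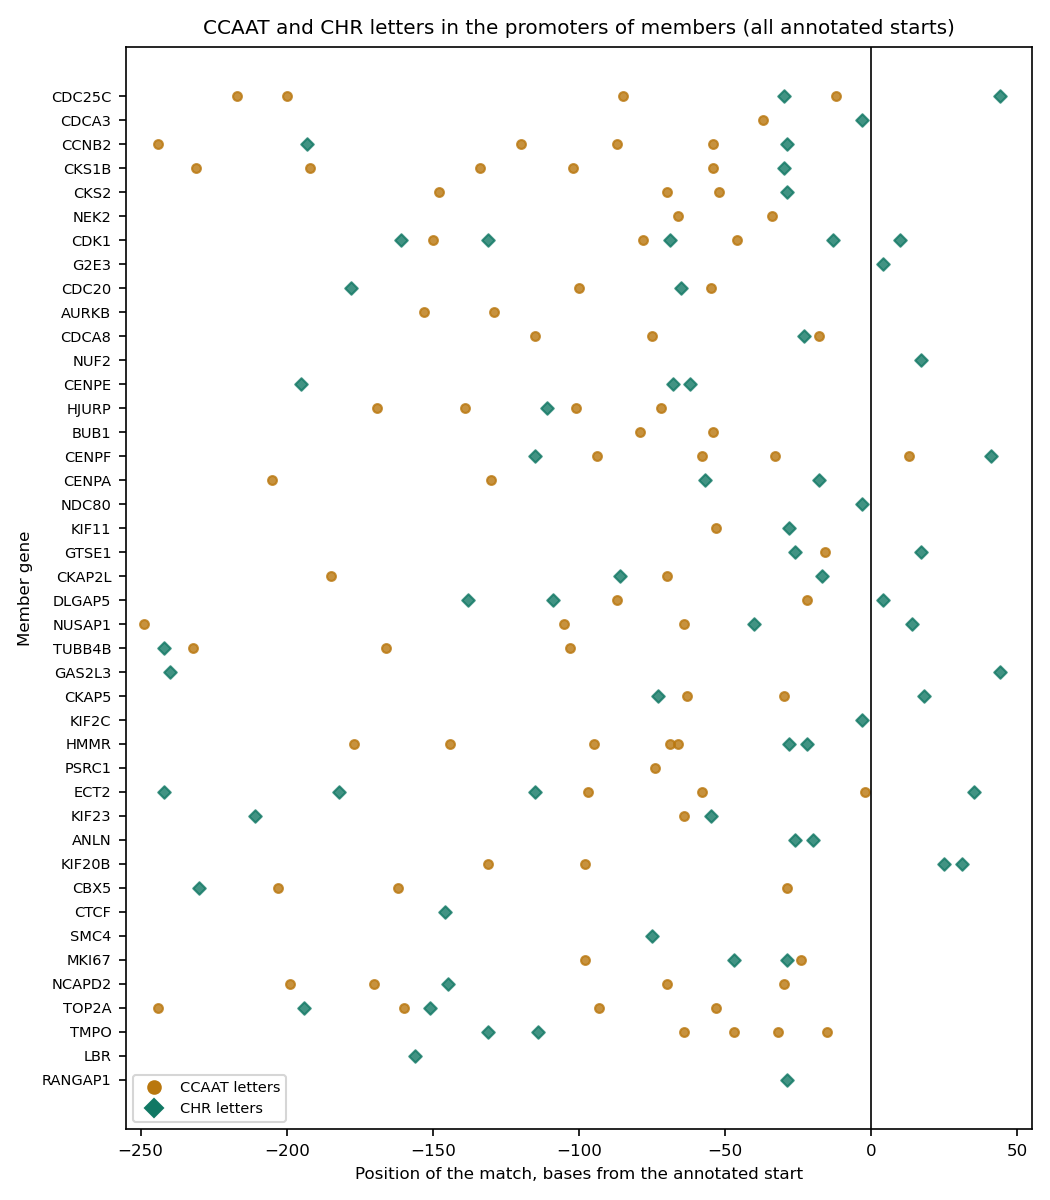
Positions of CCAAT letters (circles) and CHR letters (diamonds) in the promoters of the members that held either, in bases from the annotated start on the x axis, with genes grouped by role on the y axis. Matches to all annotated starts of a gene share its line. CHR letters gather within 50 bases of the start, where 26 of 44 members had them, and CCAAT lies mostly upstream of that.

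The MDAMB468 library held 306 cell barcodes and 5501900 UMIs (unique molecular identifiers, each counted as 1 RNA molecule), with a median of 10016.5 UMIs per barcode. The CAL51 library held 1377 barcodes, of which 31 had a sequence also found in MDAMB468 and were left out, leaving 1346 with 16223444 UMIs and a median of 8635. Within a line, 64 MDAMB468 and 7 CAL51 barcodes lay 1 base away from a barcode that had 5 or more times as many UMIs. These were kept, and leaving them out was among the settings tried. The epithelial markers EPCAM, KRT8 and KRT18 had between 3052 and 25221 UMIs in each line. Of markers of other cell types, the leukocyte gene PTPRC had 0 and 3 UMIs in MDAMB468 and CAL51, the endothelial gene PECAM1 had 6 and 4, and the fibroblast collagen COL1A1 had 22 and 11.

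Levels were first compared as UMIs per 1000000 UMIs of the library (CPM), summed over all cells of a line, which asks how much of each line's RNA came from mitotic genes. The 52 genes together made up 9027 CPM in MDAMB468 and 11709 CPM in CAL51, 1.30 times as much. Such sums weight barcodes by depth. In MDAMB468, 31 barcodes, with sequences also found under CAL51, held 2181232 of the 5501900 UMIs, at 10287 member CPM. At least 1.5-fold lower in MDAMB468 were 19 of the 52 genes (36.5%), and 33 lay between. The share of lower genes was near the background, since 31.7% of the 15347 genes with at least 20 UMIs over both lines were lower by that measure. None of the 52 was at least 1.5-fold higher in MDAMB468, against a background of 24.6% of genes. With at least 100 UMIs, which all 52 genes had, the background was 34.4% lower and 20% higher. The median log2 difference of CPM + 1, MDAMB468 minus CAL51, was -0.43 over the 52 genes and -0.13 over all genes tested. Counting intervals of the fold excluded 1 for 34 genes higher in CAL51 and for 13 higher in MDAMB468. No share of all genes was computed for this measure, which at these counts takes in folds as small as the 1.15 of ANP32E. Less RNA per cell and fewer cells in G2 or M cannot be told apart in these sums.

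**Figure D2:**
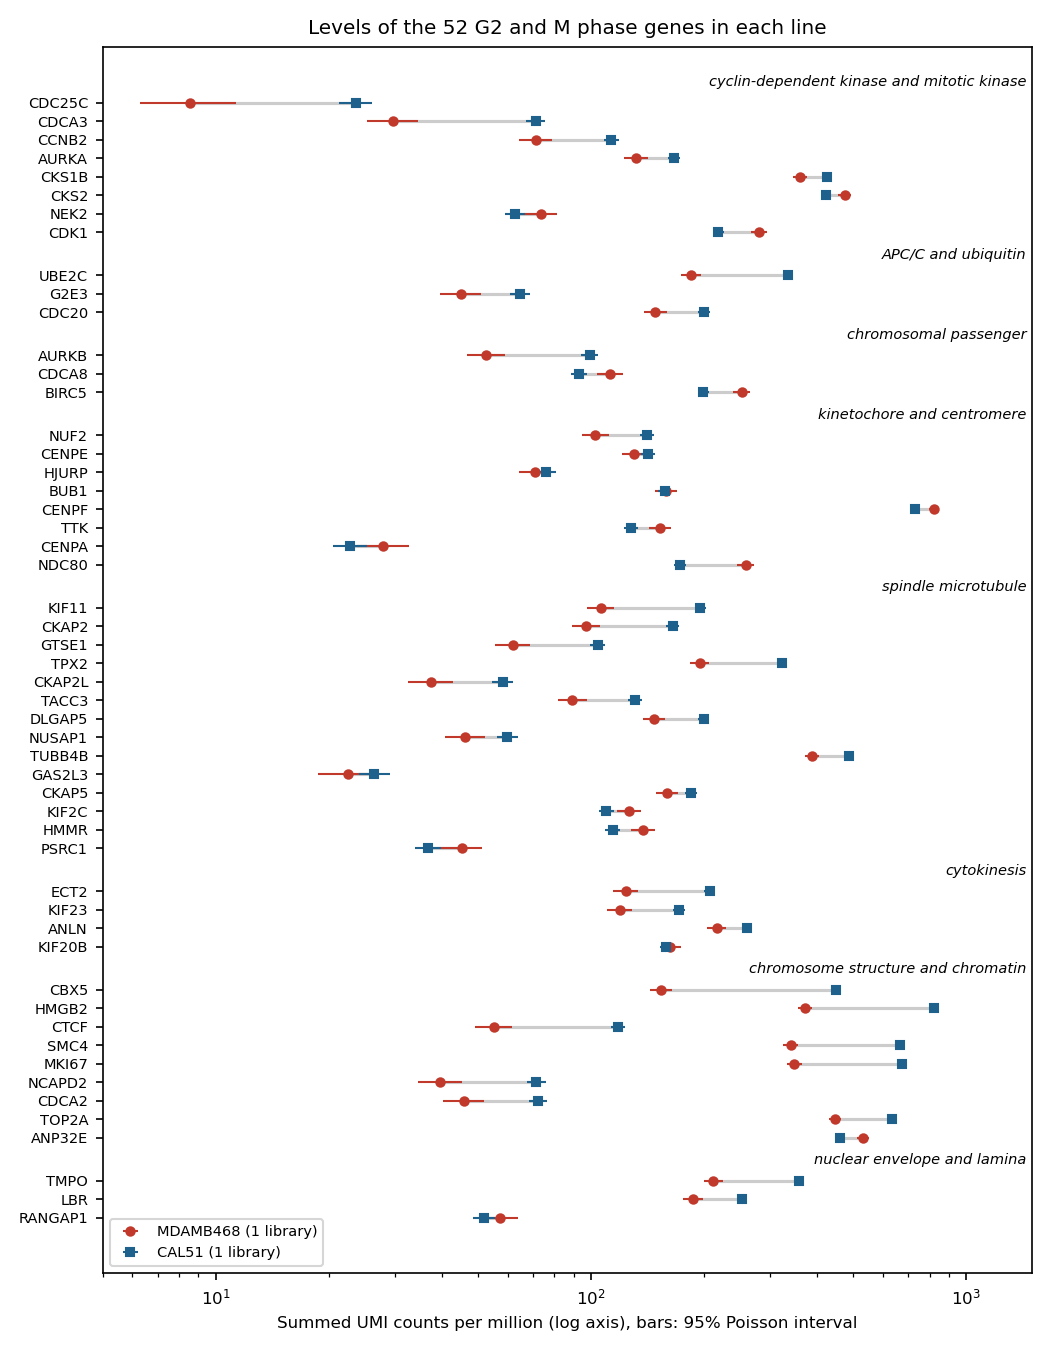
Level of each of the 52 genes in MDAMB468 (circles) and CAL51 (squares), in CPM on a log x axis with 95% Poisson intervals, genes grouped by role on the y axis and ordered by the line difference within a role. Chromosome structure genes lie apart in the 2 lines, with CBX5 at 154 and 449 CPM, whereas kinetochore genes lie close together.

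The genes of chromosome structure and chromatin showed the widest gap. Of 9, 7 were at least 1.5-fold lower in MDAMB468, against 31.7% of all genes. The 9 genes had a median log2 difference of -0.95 and sums of 2334 and 3975 CPM. CBX5 encodes the heterochromatin protein HP1-alpha and lies at chr12:54230940-54280133 (GENCODE 29, GRCh38). It had 845 UMIs in MDAMB468, or 154 CPM (95% interval 143 to 164), and 7287 UMIs in CAL51, or 449 CPM (439 to 460). CAL51 was thus 2.92-fold higher (2.72 to 3.14), the widest line difference of the 52 genes. HMGB2, a DNA-bending protein at chr4:173331695-173335125, was at 372 CPM in MDAMB468 and 824 CPM in CAL51, a 2.21-fold difference (2.11 to 2.32). The insulator protein CTCF (log2 difference -1.09), the condensin subunit SMC4 (-0.97) and MKI67 (-0.95) were also lower in MDAMB468. TOP2A, the topoisomerase that untangles sister chromatids, differed less, at 448 and 635 CPM. Only the histone chaperone ANP32E went the other way within this role, at 530 CPM in MDAMB468 and 463 CPM in CAL51.

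Kinetochore and centromere genes did not share that gap. None of the 8 differed by 1.5-fold, against 31.7% of all genes lower and 24.6% higher in MDAMB468. The 8 genes had a median log2 difference of 0.09, and sums of 1723 CPM in MDAMB468 and 1573 CPM in CAL51. NDC80, the microtubule-binding subunit of the kinetochore at chr18:2571511-2616635, was the member most in favour of MDAMB468, with 1424 UMIs or 259 CPM against 2803 UMIs or 173 CPM (log2 difference 0.58, fold interval 1.40 to 1.60). Its partner in the same complex, NUF2, had the opposite sign, with 103 CPM in MDAMB468 and 141 CPM in CAL51. The checkpoint kinase BUB1 was at 159 and 157 CPM, a difference smaller than its counting error. NUF2 overlaps RGS5 on the opposite strand in GENCODE 29, and it is not given whether the counting used the strand.

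Kinases and their partners were split. CDC25C, the phosphatase that activates CDK1 (chr5:138285265-138338355), had 47 UMIs or 8.54 CPM in MDAMB468 and 384 UMIs or 23.7 CPM in CAL51, 2.77-fold higher (2.04 to 3.84). CDCA3, a trigger of mitotic entry at chr12:6844793-6852066, was at 29.6 and 71.4 CPM, 2.41-fold higher in CAL51 (2.04 to 2.86). CCNB2, cyclin B2, was at 71.2 and 113 CPM. CDK1 itself (chr10:60778331-60794852) was higher in MDAMB468, at 280 CPM against 219 CPM (log2 difference 0.36, fold interval 1.21 to 1.36). CDK1 and cyclin B2 therefore had opposite signs between the lines. CKS1B was at 361 and 425 CPM and CKS2 at 475 and 424 CPM. Both CKS genes were within 1.5-fold between the lines.

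Smaller roles varied gene by gene. In the chromosomal passenger complex, which corrects faulty spindle attachments, the kinase AURKB was lower in MDAMB468 (52.5 against 99.2 CPM). Its partners BIRC5, or survivin, at chr17:78214186-78225636 (252 against 199 CPM, log2 difference 0.34) and CDCA8 (112 against 93.1 CPM) were higher. Of 14 spindle genes 5 were at least 1.5-fold lower in MDAMB468, a share near the 31.7% of all genes. KIF11 was the lowest of the 14 at 106 and 196 CPM. PSRC1, a spindle protein at chr1:109279556-109283186, was the highest of them at 45.4 and 36.9 CPM (log2 difference 0.29, fold interval 1.06 to 1.43). UBE2C, the ubiquitin-conjugating enzyme of the APC/C, was at 185 and 335 CPM. The lamina-associated TMPO was at 212 and 359 CPM and the cytokinesis factor ECT2 at 124 and 207 CPM. The sign of the difference was the same in all 9 settings tried for all members but HJURP, BUB1, KIF20B and RANGAP1.

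To ask whether the genes vary together from cell to cell, every cell with at least 5000 UMIs was thinned to 5000. This kept 212 MDAMB468 cells, with 94 shallower cells left out, and 1071 CAL51 cells, with 275 left out. The 52 genes then had a median of 37.5 UMIs per cell in MDAMB468 (lowest 3, quartiles 19 and 57.25, highest 131). In CAL51 the median was 53 (lowest 5, quartiles 38 and 73, highest 164). The 2 distributions overlapped over most of their range, with the lower quartile of MDAMB468 well below that of CAL51. Before thinning the medians were 114 and 115 UMIs per cell.

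Correlations were computed between cells of a line on log2(UMIs + 1), and all of them share the cells and depth of 1 library. Over the 1326 pairs of members the median Pearson r was 0.19 in MDAMB468 and 0.14 in CAL51. Of these pairs, 631 (47.6%) reached 0.2 in MDAMB468 and 320 (24.1%) in CAL51, and 68 and 20 pairs were below 0. The share over pairs of other genes was not computed. Each gene was also compared with the sum of the other 51, where the median r was 0.41 in MDAMB468 and 0.34 in CAL51. That r reached 0.2 for 48 and 45 of the 52 genes. Among genes outside the list with a mean of at least 0.05 UMIs, 1.59% of 8262 in MDAMB468 and 0.783% of 8428 in CAL51 reached 0.2 with the member sum. Counts past a threshold of r also depend on the number of cells, here 212 and 1071, and that part was not tested. Thinned to 10000 UMIs, which also left fewer cells (153 and 558), the median r with the other genes was 0.54 and 0.45. Thinned to 2500 UMIs, which kept all cells (306 and 1346), the median pair r was closer between the lines, at 0.11 in MDAMB468 and 0.09 in CAL51.

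**Figure D3:**
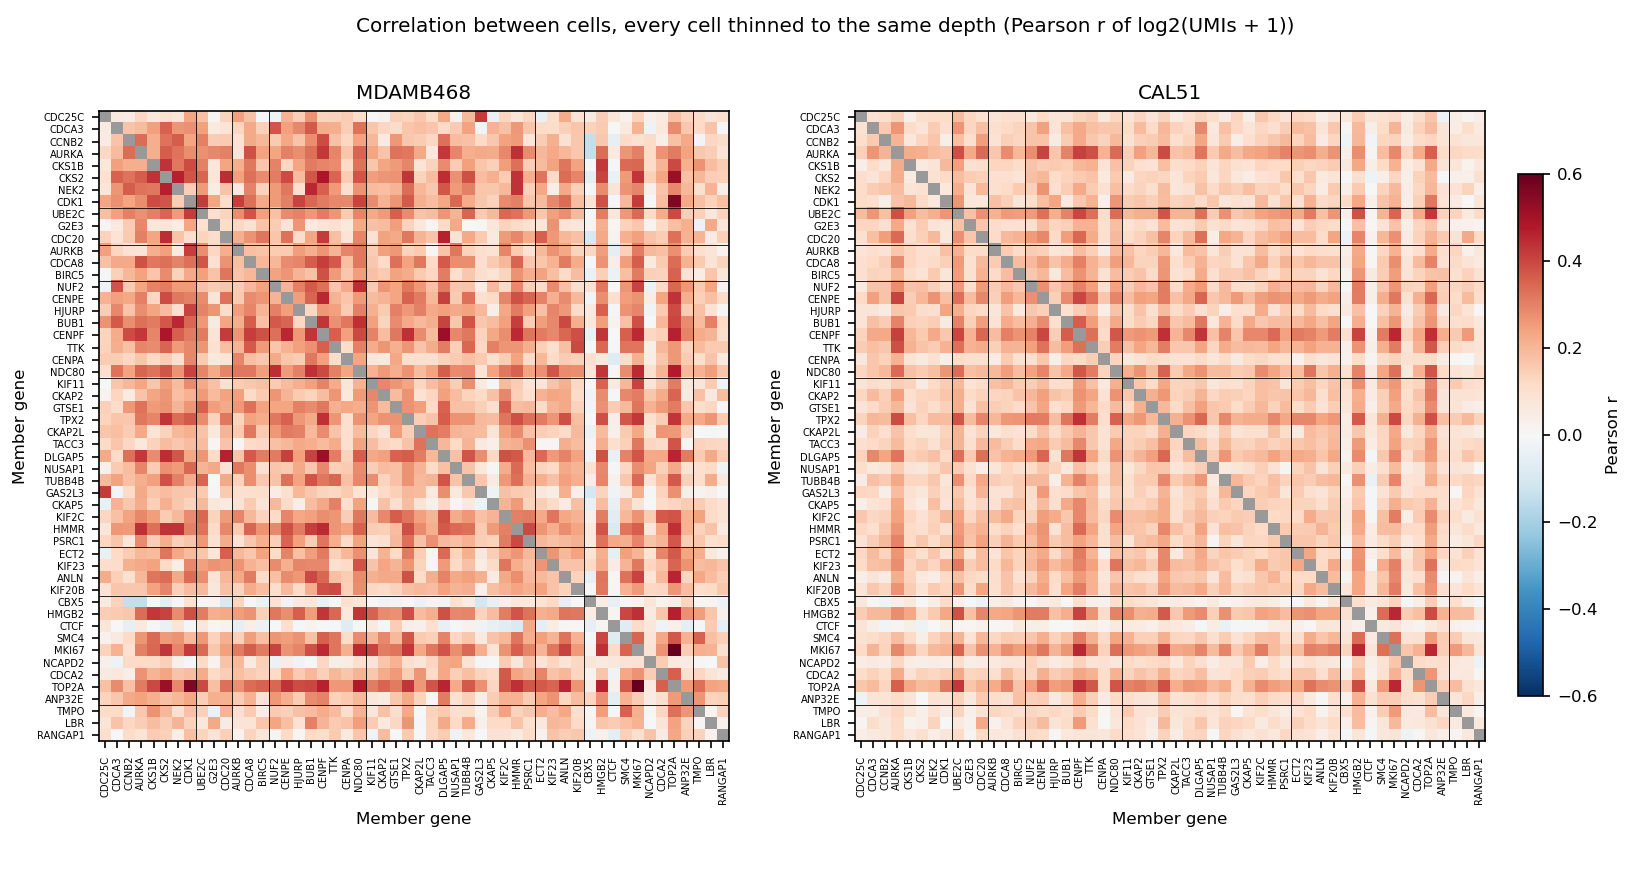
Pearson r between cells for each pair of the 52 genes, in MDAMB468 (left) and CAL51 (right), from blue (negative) to red (positive), at 5000 UMIs per cell. Both axes list the genes by role, with lines between roles and the diagonal in grey. TOP2A, MKI67 and CENPF form red bands in both lines, CTCF and CBX5 form pale bands, and the CKS2 and CDK1 bands are stronger in MDAMB468.

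The 5 strongest pairs in MDAMB468 were TOP2A with MKI67 (r 0.61), CDK1 with TOP2A (0.56), TOP2A with CKS2 (0.52), CENPF with DLGAP5 (0.51) and CKS2 with CENPF (0.48). In CAL51 they were MKI67 with CENPF, HMGB2 with MKI67 and TOP2A with MKI67, all at 0.45, followed by TPX2 with CENPF and TOP2A with CENPF, both at 0.44. TOP2A and MKI67 were thus a leading pair in each line. DLGAP5 and TPX2 both act in assembly of the spindle.

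Against the other 51 genes, TOP2A (0.70), CENPF (0.64) and MKI67 (0.64) were highest in MDAMB468. CENPF (0.65), MKI67 (0.63) and HMGB2 (0.61) were highest in CAL51. At the other end stood CTCF and CBX5 in both lines, with r of -0.01 and 0.03 in MDAMB468 and 0.07 and 0.12 in CAL51. The next lowest were the condensin subunit NCAPD2 (0.15) in MDAMB468 and RANGAP1 (0.15), which stimulates GTP hydrolysis by Ran, in CAL51. In CAL51 cells CBX5 had a mean of 2.26 UMIs at this depth, above the 0.76 of AURKA, whose r was 0.51. The r of a gene with the other members in MDAMB468 followed its r in CAL51 (Pearson 0.80 over the 52 genes), and the best partner of a gene was the same in both lines for 11 genes.

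To measure how far each gene moved without using the list itself, cells were ranked on the sum of 51 other G2/M genes, here called the companion genes. The member sum followed the companion sum (r 0.87 in MDAMB468 and 0.86 in CAL51). Each line was split into 4 equal tiers of cells, from tier 1 (lowest) to tier 4 (highest). Tier 1 of MDAMB468 had at most 10 companion UMIs per cell and tier 4 at least 28, with 53 cells each. In CAL51 these limits were 18 and 36, with 268 cells each. The companion sum itself differed 6.41-fold between tiers 1 and 4 in MDAMB468 and 3.92-fold in CAL51, so the ranking spans a wider range in MDAMB468. Before thinning, cells of tier 4 were deeper than those of tier 1, at a median of 22058 against 14401 UMIs in MDAMB468 and 11955.5 against 9293 in CAL51, and the part of depth in the folds was not tested.

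The 52 genes had a median fold between tier 4 and tier 1 of 7.80 in MDAMB468 and 3.93 in CAL51. At least 2-fold higher in tier 4 were 48 and 45 of the 52 genes. Among genes that were neither members nor companions this held for 13.4% of 8214 in MDAMB468 and 1.54% of 8377 in CAL51, with a median fold of 1 in both. These shares also depend on the cells per tier, 53 and 268, and that part was not tested. In MDAMB468, 5 genes had no UMI in tier 1 (AURKB, PSRC1, CDCA3, GAS2L3 and CDC25C), and their folds are lower bounds against 3 counts over that tier. The median MDAMB468 fold was 6.40 with another random draw of the thinned UMIs and 8.80 without the barcodes 1 base from a larger one, and over all settings the fold of 41 of the 52 genes moved by more than 1.5 times in MDAMB468, against 9 in CAL51.

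By role, at 5000 UMIs, kinetochore genes had the highest median fold, 16.1 in MDAMB468 and 5.20 in CAL51. Spindle genes followed in MDAMB468 at 9.18, with 4.40 in CAL51, and all 14 were at least 2-fold higher in both lines. Kinases were at 8.24 and 4.09, and chromosomal passenger genes at 7.44 and 5.10. Chromosome structure genes were at 4.67 and 2.51, and the 3 genes of the nuclear envelope were lowest, at 2.19 and 1.91. Chromosome structure, the role with the widest gap in level between the lines, was thus among the roles with the smaller median folds between cells. Its genes were spread widely, with folds from 0.93 to 11.5 in MDAMB468 and from 1.20 to 4.55 in CAL51.

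In MDAMB468 the 3 highest folds belonged to HJURP, the chaperone of the centromeric histone (34, interval 5.70 to 1382, from 1 UMI in tier 1), HMMR, a spindle protein (25.7, 8.46 to 127), and NDC80 (24.2, 10.1 to 75.9). In CAL51 they belonged to PSRC1 (10.4, 5.58 to 21.3), the centrosomal kinase AURKA (9.81, 7.28 to 13.5) and the kinetochore motor CENPE (8.42, 6.23 to 11.6). The MDAMB468 intervals are wide because 53 cells with few UMIs form the denominator. Under the other settings these folds lay between 6.5 and 15.7 for HJURP, 14.4 and 35 for HMMR, and 6.46 and 19.6 for NDC80. Lowest in MDAMB468 among the genes with UMIs in tier 1 were CTCF (0.93, 0.40 to 2.13), CBX5 (1.32, 0.81 to 2.18) and ANP32E (1.98, 1.54 to 2.55). CDC25C, with 0 UMIs in tier 1 and 4 in tier 4, cannot be ranked. CBX5 (1.20, 1.07 to 1.34), CTCF (1.31, 1.02 to 1.67) and ANP32E (1.49, 1.34 to 1.67) were lowest in CAL51. For CTCF and CBX5 the MDAMB468 intervals held 1, so no difference between tiers was detectable at this depth, and under the other settings their folds lay on both sides of 1 (0.61 to 1.53 for CTCF and 0.725 to 1.12 for CBX5).

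**Figure D4:**
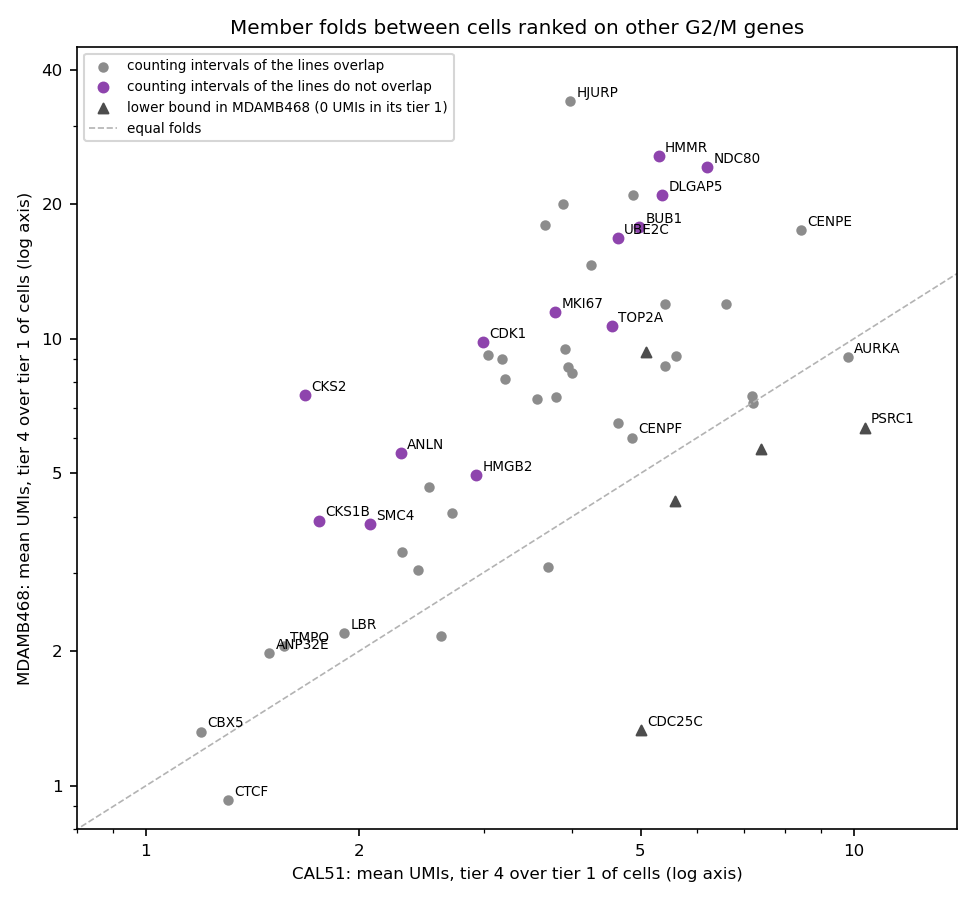
Fold of each gene between tier 4 and tier 1 of cells, CAL51 on the x axis and MDAMB468 on the y axis, both log axes, with a dashed line where folds are equal. Triangles are lower bounds in MDAMB468, and the 13 genes whose intervals separate between lines (purple) all lie above the dashed line.

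The fold was larger in MDAMB468 for at least 43 of the 52 genes, since for 4 of the others (CDCA3, PSRC1, GAS2L3 and CDC25C) the MDAMB468 value is a lower bound and the order is undetermined. Intervals of the 2 lines did not overlap for 13 genes, all with the larger fold in MDAMB468: HMGB2, CDK1, UBE2C, TOP2A, NDC80, CKS2, CKS1B, MKI67, SMC4, BUB1, DLGAP5, HMMR and ANLN. For 12 of these the fold was larger in MDAMB468 in all 6 settings run on both lines, and for NDC80 in 4 of 6. The mean was lower in MDAMB468 for 50 of 52 genes in tier 1 and for 38 of 52 in tier 4. For the counts of 43, 13, 50 and 38 genes, no share over all genes was computed. Whether they are particular to the members was therefore not tested. Genes that were neither members nor companions were also at least 2-fold higher in tier 4 more often in MDAMB468 (13.4%) than in CAL51 (1.54%). TOP2A had tier means of 0.40, 1.58, 2.0 and 4.23 UMIs per cell in MDAMB468 and 1.18, 2.23, 3.45 and 5.37 in CAL51. CENPF had nearly the same means in both lines, 1.17, 2.60, 4.17 and 7.04 against 1.34, 2.60, 3.83 and 6.51. The wider range of the companion ranking in MDAMB468 goes along with these larger folds, and its part was not tested.

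CKS2 was the gene whose rank among the members, by r with the others, differed most between the lines. In MDAMB468 its tier means were 0.55, 1.11, 1.92 and 4.09 UMIs per cell, a 7.48-fold difference between tiers 1 and 4 (5.06 to 11.4). In CAL51 they were 1.69, 1.65, 2.07 and 2.84, a 1.68-fold difference (1.49 to 1.89). CAL51 cells in tier 1 thus held about as much CKS2 as MDAMB468 cells in tier 3. Tiers are relative to each line, and tier 1 reached 18 companion UMIs per cell in CAL51 and 10 in MDAMB468. The r of CKS2 with the other 51 genes ranked 5 of 52 in MDAMB468 (0.61) and 48 of 52 in CAL51 (0.19). Across the other settings the CKS2 fold lay between 5.38 and 7.19 in MDAMB468 and between 1.57 and 1.96 in CAL51.

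CKS1B, a paralogue of CKS2, had a smaller contrast of the same kind. Its tier means were 0.74, 1.53, 1.98 and 2.89 in MDAMB468 (3.92-fold, 2.74 to 5.73) and 1.49, 1.94, 2.38 and 2.60 in CAL51 (1.75-fold, 1.55 to 1.99). The 2 genes correlated with each other at r 0.44 in MDAMB468 and 0.05 in CAL51. GENCODE 29 names 6 pseudogenes for CKS1B, which had 0 UMIs in the table, and how such reads were assigned is not given. CDK1, which both proteins bind, had means of 0.26, 1.04, 1.19 and 2.60 in MDAMB468 (9.86-fold, 5.68 to 18.5) and 0.50, 1.02, 0.97 and 1.5 in CAL51 (2.99-fold, 2.46 to 3.67). Its fold under the other settings lay between 5.90 and 9.95 in MDAMB468 and between 2.21 and 2.67 in CAL51. CDK1 and CKS2 correlated at 0.38 and 0.11. The promoters of CKS1B and CKS2 printed above, with 3 CCAAT and 1 CHR match each, are reference sequence and were not read from either line.

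**Figure D5:**
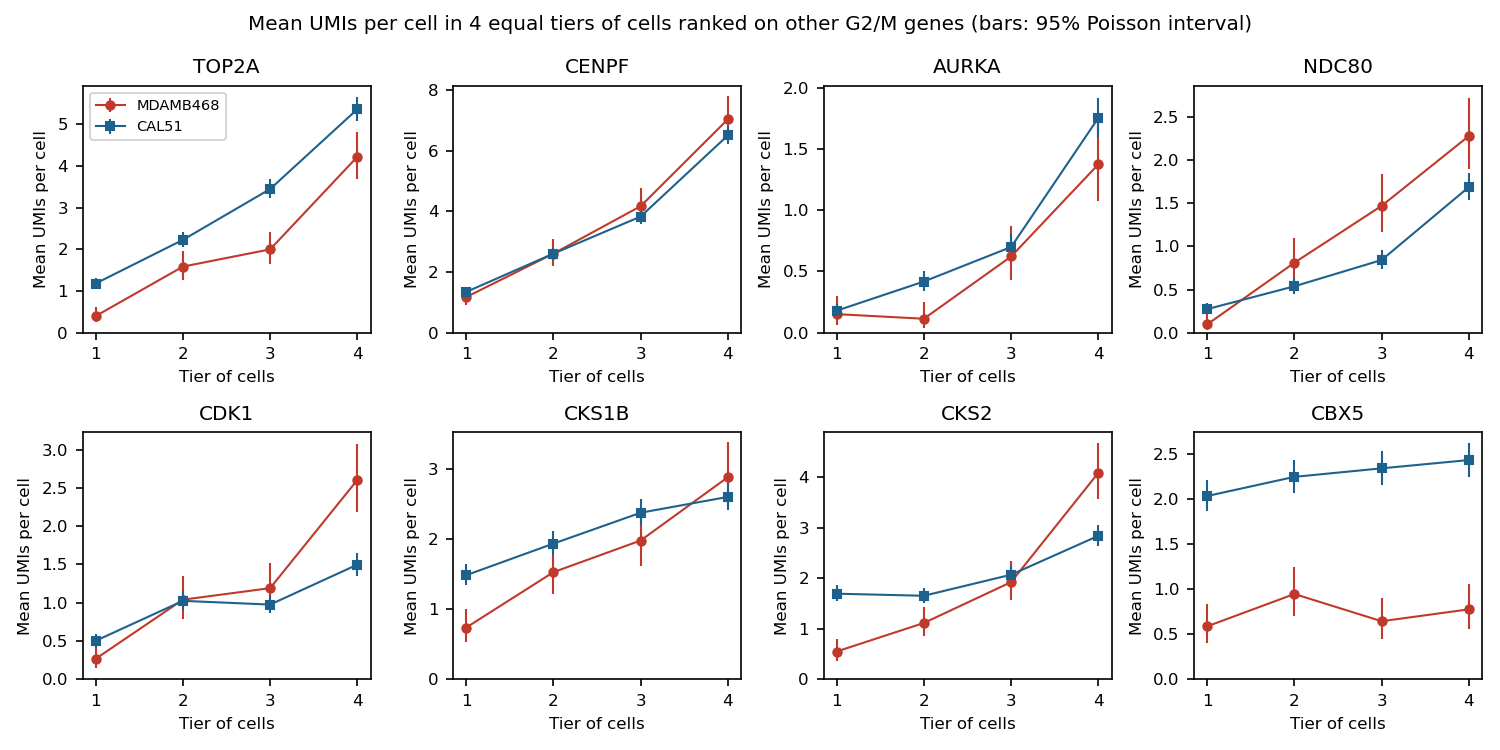
Mean UMIs per cell (y axes, from 0, with 95% Poisson intervals) of 8 genes in the 4 tiers of cells ranked on the companion genes (x axes), MDAMB468 as circles and CAL51 as squares. CENPF runs alike in both lines, CKS2 goes from 0.55 to 4.09 in MDAMB468 and from 1.69 to 2.84 in CAL51, and CBX5 stays nearly level in each.

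The S phase genes followed the members far less. Their sum correlated with the member sum at r 0.03 in MDAMB468 and 0.17 in CAL51. Of 42 S phase genes, 3 reached r 0.2 with the member sum in MDAMB468 and 0 in CAL51. The median S phase sum in tiers 1 and 4 was 17 and 16 UMIs in MDAMB468 and 32 and 26 in CAL51. Within the members, HMGB2 (0.27), TMPO (0.23) and SMC4 (0.22) had the highest r with the S phase sum in CAL51, and CKS2 (-0.17) and AURKA (-0.11) the lowest. In MDAMB468 the highest were SMC4 and MKI67 (both 0.13), and the lowest were CDC20 (-0.30) and CCNB2 (-0.26). Many other members were also below 0 in each line. Between the lines, 21 of 42 S phase genes were at least 1.5-fold lower in MDAMB468 and 1 higher, against 31.7% and 24.6% of all genes, with a median log2 difference of -0.61 against -0.13 over all genes. The lowest were the helicase subunit MCM2 (-2.12), the helicase BLM (-1.88) and the origin-licensing factor CDC6 (-1.63), and the highest were DSCC1 (0.70), the licensing inhibitor GMNN (0.38) and the polymerase subunit POLA1 (0.26).

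Many companion genes followed the members between cells. Of those measured, 37 of 48 in MDAMB468 and 34 of 51 in CAL51 reached r 0.2 with the member sum. Between the lines 27 of 51 were at least 1.5-fold lower in MDAMB468 and 2 were higher, against 31.7% and 24.6% of all genes, with a median of -0.64 against -0.13. The lowest were the checkpoint protein MAD2L1 (71.6 and 201 CPM, -1.48), the protease separase or ESPL1 (4.91 and 15.5 CPM, -1.48) and the checkpoint kinase BUB1B (76.2 and 203 CPM, -1.40). The highest were JPT1 (401 and 193 CPM, 1.05), securin or PTTG1 (518 and 299 CPM, 0.79) and the kinetochore-associated SKA3 (68.7 and 47.5 CPM, 0.52). Separase and securin, the inhibitor that holds it, thus differed in opposite directions between the lines.

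Of the 14 regulators that act on CHR and CCAAT promoters, 7 were at least 1.5-fold lower in MDAMB468 and 1 was higher, against 31.7% and 24.6% of all genes. The pocket protein RBL1 had 62 UMIs or 11.3 CPM in MDAMB468 and 644 UMIs or 39.7 CPM in CAL51 (log2 difference -1.73). Its relative RBL2, the other pocket protein of DREAM, had 412 UMIs or 74.9 CPM and 641 UMIs or 39.5 CPM (0.91). The 2 pocket proteins therefore went in opposite directions. LIN54, the DREAM subunit that contacts the CHR, was at 11.1 and 38.0 CPM (-1.69) and LIN52 at 5.82 and 20.9 CPM (-1.68). The NF-Y subunits NFYC (0.55) and NFYB (0.40) were higher in MDAMB468, while the remaining subunit NFYA was lower, at 6.91 and 16.5 CPM (-1.14). FOXM1 was at 24.5 and 66.9 CPM (-1.41), and it and NFYA are named after their values were seen. Between cells, the median r with the member sum was 0.05 over the 10 regulators with enough UMIs in MDAMB468 and 0.05 over the 13 in CAL51. The highest folds between tiers 1 and 4 in MDAMB468 were those of FOXM1 (0.038 to 0.151 UMIs per cell) and LIN9 (0.057 to 0.151), both at few UMIs. In CAL51 FOXM1 had the highest fold of the 13, at 1.86 (0.235 to 0.437 UMIs per cell), and the highest r with the member sum, at 0.18.

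Outside all these lists, the 5 genes most correlated with the member sum in MDAMB468 were SPDL1, a spindle checkpoint adaptor (r 0.55), the calmodulin gene CALM2 (0.46), the tubulin TUBA1C (0.46), the cohesin subunit RAD21 (0.43) and the microtubule destabiliser STMN1 (0.41). In CAL51 they were the tubulin TUBA1B (0.51), RAD21 (0.42), the nucleosome-binding HMGN2 (0.40), SPDL1 (0.37) and TUBA1C (0.37). SPDL1, TUBA1C and RAD21 were among the 5 in both lines. The SPDL1 mean went from 0.45 to 2.13 UMIs per cell between tiers 1 and 4 in MDAMB468 and from 0.69 to 2.02 in CAL51.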

How the data were processed

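Per the submitters' processing notes STARsolo was used. For its version, build, annotation, strand setting and barcode selection, nothing is given in the sources used here. The deposited matrix holds raw UMI counts per gene and barcode, and each barcode name starts with its line. Symbols were matched to Ensembl identifiers, and positions came from GENCODE 29. Counts were summed per line and scaled to CPM. Line differences are log2(CPM + 1), MDAMB468 minus CAL51, a scale that understates differences of low genes. Poisson and conditional fold intervals are exact at 95%. With 1 library per line there is no test. Cells were thinned to 5000 UMIs with a fixed seed, and doublets were not sought. In GENCODE 29, 16 members have pseudogenes named for them and 21 overlap a gene on the opposite strand, so their counts are uncertain. The members, the lists and the naming rule were chosen with earlier results of these data known. The rule names the extremes of each measure: 4 per end for line differences, 3 per end for r and folds, 5 for pairs and for genes off the lists. For other lists it names 3 per end with at least 100 UMIs. The markers HBB and CD3E were not analysed here. The steps were tested on simulated data. TMM factors came from edgeR 4.0.16 in R 4.3.3, and the rest from scipy 1.17.1, numpy 2.4.6 and pandas 2.3.3 in Python 3.11.15.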

Additional observations from a re-analysis of the deposited data

Results flagged for a closer look

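The 31 CAL51-labelled barcodes left out, whose sequences also occur in MDAMB468, held 1179 UMIs on the 52 genes out of 135240, or 8718 CPM (95% interval 8227 to 9230). The MDAMB468 barcodes with the same sequences held 22438 member UMIs of 2181232, or 10287 CPM (10153 to 10422). The 31 CAL51-labelled barcodes entered only the settings that keep them in CAL51, and carried a signal of the same genes. The MDAMB468 barcodes with the same sequences were kept, and are part of the MDAMB468 values above.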

How the results depend on the processing

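No paired analysis was possible because each line has 1 library. Between 16 and 24 of the 52 genes were at least 1.5-fold lower in MDAMB468 over the 9 settings tried. At least 1.5-fold higher were 2 genes (NDC80 and CENPA) with the mean over cells of per-cell CPM, and 1 (NDC80) with totals that leave out mitochondrial and ribosomal protein genes. The median log2 difference of the members was -0.56 with TMM factors and -0.57 with median-of-ratios factors, which moved the median of all genes by -0.12 and -0.13. Thinned to 10000 UMIs, the median r with the other members was 0.540 for MDAMB468 and 0.446 for CAL51, and the median pair r was 0.302 and 0.220. Thinned to 2500 UMIs, the median r with the other members was 0.284 and 0.260. The cause was not tested. The median fold between tiers 1 and 4 lay between 5.62 and 8.80 in MDAMB468 and between 3.19 and 4.18 in CAL51. The CHR count was 32 of 44 genes with the 250 bases before the start only. Of 2492 other values recomputed, 444 moved beyond a set tolerance. For log2 differences of single genes it was the counting interval, and for counts and shares a 1.5-times change. Of the 2492 values, none past 1.5-fold between lines, past r 0.2 or past 2-fold between tiers changed direction. Under 1.5-fold, 30 log2 differences, of 19 genes, changed sign. Each tier held 53 MDAMB468 and 268 CAL51 cells, which with the UMIs per cell sets the counting intervals of the folds.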
